A study of Homo sapiens with 90 samples.

Results

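The SR splicing factors described here are SRSF1, SRSF2, SRSF3, SRSF4, SRSF5, SRSF6, SRSF7, SRSF9, SRSF10 and SRSF11. They were taken by symbol, each matched to 1 Ensembl gene ID of the count table, which gives 10 of 53893 gene IDs, and all 10 passed every filter on low counts. The study gave 6 established human cancer cell lines a drug aimed at the signalling each line depends on, alone or with THZ1, and sequenced their RNA. It asked how transcription changes under the targeted drug and what adding THZ1 does to that change. THZ1 is a covalent inhibitor of CDK7, a kinase of the general transcription machinery. With 5 arms a line and 3 libraries an arm, there were 30 groups and 90 libraries.

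Cells were kept for 48 h in 0.1% DMSO, the vehicle, in the targeted drug, in THZ1 or in both, and another arm had 7 days of the targeted drug. A375, a melanoma line, received 1 uM vemurafenib, a BRAF inhibitor, and 50 nM THZ1. The lung line A549 received 200 nM GSK1120212, a MEK inhibitor also named trametinib, and 150 nM THZ1. The lung line H3122 received 250 nM crizotinib, an ALK and MET inhibitor, and 50 nM THZ1. N87, a gastric line, received 100 nM lapatinib, an EGFR and ERBB2 inhibitor, and 25 nM THZ1. The lung line PC9 received 1 uM erlotinib, an EGFR inhibitor, and 100 nM THZ1. RT112, a bladder line, received 1 uM BGJ398, an FGFR inhibitor, and 100 nM THZ1. Drug and line cannot be told apart, since no targeted drug was given to more than 1 line and the THZ1 dose differed between lines. There was no vehicle arm at 7 days, so the 7-day cells were set against 48 h of the same drug.

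SR proteins carry 1 or more RNA recognition motifs and a tail rich in arginine and serine, with which they bind exonic enhancers and bring the spliceosome to weak splice sites. Phosphorylation of that tail, by SRPK kinases in the cytoplasm and CLK kinases in the nucleus, sets where they are and whether they act, and neither phosphorylation nor protein is measured by RNA counts. Many of their genes hold an alternative poison exon whose inclusion sends the mRNA to nonsense-mediated decay, by which the proteins limit their own amount. Counts per gene sum productive and poison-exon transcripts, and GENCODE release 29 lists at least 1 nonsense-mediated decay transcript for all 10 genes.

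The promoter sequences of 5 members are shown because their RNA behaved differently: SRSF3, SRSF7 and SRSF10 fell together under the targeted drugs, and SRSF5 and SRSF6 did not follow them. Each window is the 250 bases before the annotated start, written 5′ to 3′ in the sense of the gene, from RefSeq on GRCh38.p14, while the counts were made on hg19. Windows were found for 9 of the 10 genes, all but SRSF2. Where a gene has 2 annotated starts, the one farther upstream was used. As a check, bases just after the start were looked for in GENCODE transcripts of the gene. They were found for every gene with a window except SRSF6. Capitals mark any of 8 motifs searched on both strands.
SRSF3: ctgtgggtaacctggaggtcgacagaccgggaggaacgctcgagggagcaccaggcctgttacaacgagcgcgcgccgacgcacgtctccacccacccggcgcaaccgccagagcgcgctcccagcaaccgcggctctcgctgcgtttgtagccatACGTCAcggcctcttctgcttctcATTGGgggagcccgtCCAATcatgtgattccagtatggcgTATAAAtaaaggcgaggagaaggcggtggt
SRSF7: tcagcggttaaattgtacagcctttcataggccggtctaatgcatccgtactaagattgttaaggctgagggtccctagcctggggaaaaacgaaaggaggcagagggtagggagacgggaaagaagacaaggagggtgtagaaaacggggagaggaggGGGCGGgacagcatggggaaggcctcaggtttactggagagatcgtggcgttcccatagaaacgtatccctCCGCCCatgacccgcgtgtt
SRSF10: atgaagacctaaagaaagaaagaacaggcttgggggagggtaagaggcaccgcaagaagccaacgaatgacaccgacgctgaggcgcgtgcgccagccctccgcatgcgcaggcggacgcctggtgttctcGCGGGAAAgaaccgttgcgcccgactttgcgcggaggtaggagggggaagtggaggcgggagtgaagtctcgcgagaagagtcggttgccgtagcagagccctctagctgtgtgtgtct
SRSF5: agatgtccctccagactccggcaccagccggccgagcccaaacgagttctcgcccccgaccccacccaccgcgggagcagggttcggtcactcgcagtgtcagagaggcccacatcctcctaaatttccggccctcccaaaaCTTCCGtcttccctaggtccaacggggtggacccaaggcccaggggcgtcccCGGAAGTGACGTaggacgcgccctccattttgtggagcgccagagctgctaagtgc
SRSF6: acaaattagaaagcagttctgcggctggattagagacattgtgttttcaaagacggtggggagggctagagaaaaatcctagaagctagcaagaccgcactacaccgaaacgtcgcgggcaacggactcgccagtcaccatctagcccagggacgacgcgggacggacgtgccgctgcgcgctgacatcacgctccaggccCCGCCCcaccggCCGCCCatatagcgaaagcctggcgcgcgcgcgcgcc
They lie at chr6:36594112-36594361 on the plus strand, chr2:38751495-38751744 on the minus strand, chr1:23980328-23980577 on the minus strand, chr14:69766892-69767141 on the plus strand and chr20:43457646-43457895 on the plus strand. The motif TGACGT, bound by CREB and ATF factors, was in the windows of SRSF1, SRSF3 and SRSF5, 3 of 9, and in 7.42% of 27305 windows of all genes. ETS factors bind CGGAAG, which was in SRSF1, SRSF4 and SRSF5, against 16.7% of all windows, and which in SRSF5 stands directly before the CREB and ATF motif. GGGCGG, bound by Sp1, was in SRSF4, SRSF6 and SRSF7, against 42.2%. CCAAT (33.0% of all windows) and TATAAA (11.2%) were in SRSF3 alone, and the E2F motif TTTCCCGC (1.42%) in SRSF10 alone. The second E2F motif, TTTGGCGC (0.542% of all windows), and the MYC motif CACGTG (6.46%) were in none of the 9 windows. No motif was shared by all of SRSF3, SRSF7 and SRSF10. Of the genes with TGACGT, SRSF1 and SRSF3 fell across lines under the targeted drugs and SRSF5 rose. The part of the motifs in these changes was not tested.

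Library totals ran from 5641054 to 14361081 expected counts, and the least covered of the 10 genes in any library had 337 counts. Of the line markers, 2 of 6 melanocyte markers reached 1 CPM in A375 in DMSO, SOX10 and MITF. The 6 melanocyte markers summed to 889.77 to 949.58 CPM in A375 and at most 37.3 CPM in PC9, the next highest line. Every other line also had 2 at 1 CPM, MITF and PMEL in A549, H3122, PC9 and RT112, and PMEL and MLANA in N87. PMEL and MLANA did not reach 1 CPM in A375. In RT112, 5 of 6 urothelial markers did, but GATA3 and PPARG did so in every line. UPK1B also reached 1 CPM in A549 and N87, and UPK2 in N87 and PC9. The urothelial markers summed to at least 962 CPM in RT112 and at most 282 CPM in A549, the next highest line. All 6 lung markers were under 1 CPM in A549 and PC9. In H3122, NKX2-1, NAPSA and SFTA3 reached 1 CPM, and the lung markers summed to 250.9 to 262 CPM. Only MUC5AC of 6 gastric markers reached 1 CPM in N87, while TFF1 and MUC5AC both did in A549 and H3122. The gastric markers summed to at most 6.49 CPM in N87, and reached 131 CPM in A549 and 213 CPM in H3122. Blood cell markers summed to at most 1.89 CPM in any DMSO library. The 6 markers of fibroblasts and endothelium summed to 138 to 144 CPM in RT112 (LUM and CDH5 reached 1 CPM), 19.8 to 25.0 CPM in A375 (PDGFRB, LUM and VWF), 13.2 to 16.2 CPM in H3122 (LUM and CDH5) and at most 5.16 CPM in the other 3 lines, and their part in the results was not tested. One A375 library at 48 h of vemurafenib has a tissue label of lung, and 5 libraries (the first-numbered RT112 library in 4 arms and the first-numbered H3122 library at 7 days) stood apart from their groups in an earlier look at these data. Without those 5, counts of called SR genes across lines were 8, 0, 1 and 0 for the comparisons below, the same as with them. Nothing in the labels ties the 3 libraries of a group to separate cultures, so tests within a line measure the spread between libraries, which may be technical. The expected counts of SRSF10 were not whole, with any decimal other than 0 as deposited, in 86 of 90 libraries, as RSEM gives where it divides a read between genes, against 20 for SRSF6, 9 for SRSF5, 1 for SRSF11 and 0 for the other 6. SRSF1, SRSF2 and SRSF9 overlap an opposite-strand gene, and counting by strand is not stated, so part of their counts may belong to AC015813.5, MFSD11 and GATC.

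All 10 genes were well expressed in DMSO. Per kb of transcript (CPM, counts scaled to the library's total, divided by the mean length of the coding transcripts), SRSF9 was highest at 312 CPM per kb (mean of 6 lines, SD 37.3), followed by SRSF2 at 276 ± 62.7, SRSF1 at 199 ± 41.4 and SRSF5 at 196 ± 40.4. SRSF3 stood at 135 ± 18.7 and SRSF7 at 101 ± 27.6. The lowest 4 were SRSF10 (68.8 ± 17.3), SRSF6 (60.1 ± 13.8), SRSF4 (58.3 ± 13.2) and SRSF11 (54.7 ± 9.71), whose differences are within the spread between lines and whose order changes when the longest transcript is used. With that length the levels of the first 5 were 199, 140.3, 104, 83.8 and 81.7 CPM per kb, so the gap between SRSF5 and SRSF3 rests on the length chosen. SRSF7 varied most between lines in DMSO, 2.48-fold between A549 at 226 CPM and PC9 at 91.1 CPM. SRSF9 varied least, 1.41-fold between H3122 at 269.6 CPM and PC9 at 192 CPM. PC9 was the lowest line for SRSF1, SRSF2, SRSF7 and SRSF9.

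**Figure D1:**
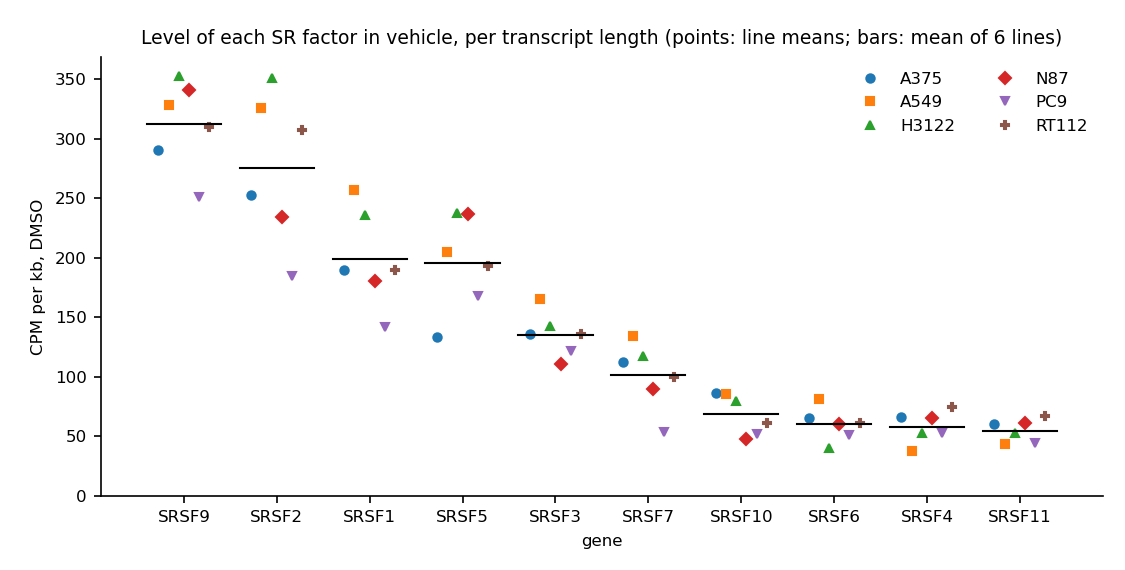
Level of each SR gene in DMSO as CPM per kb of mean coding transcript length; points are the means of 3 libraries in each of the 6 lines, bars the mean of the lines. SRSF9 and SRSF2 lie highest, at 312 and 276 CPM per kb, and SRSF11 lowest at 54.7.

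Under the targeted drugs at 48 h, 7 of the 10 SR genes fell across the 6 lines and 1 rose. SRSF7, an SR protein with a zinc knuckle that acts in splicing and mRNA export, changed by -0.93 ± 0.20 (log2 scale, SE; 95% interval -1.35 to -0.51; adjusted p = 0.00133 in edgeR's quasi-likelihood test over 11875 genes). SRSF1, the prototype of the family, changed by -0.74 ± 0.14 (adjusted p = 5.97e-04), and SRSF2, a component of nuclear speckles, by -0.72 ± 0.15 (adjusted p = 0.00122). SRSF3, the smallest of the classical SR proteins and an export adaptor, changed by -0.71 ± 0.14 (adjusted p = 6.19e-04). SRSF10, which represses splicing when it is dephosphorylated, changed by -0.62 ± 0.11 (adjusted p = 3.36e-04). Smaller falls were those of SRSF4 (-0.32 ± 0.11, adjusted p = 0.0272) and SRSF9 (-0.31 ± 0.09, adjusted p = 0.00697). Of all genes tested, 18.5% were called lower and 18.6% higher, and the median change was 0.05 over all genes and -0.47 over the 10 SR genes. In bulk RNA, fewer cells with a transcript and less of it per cell cannot be told apart. SRSF5 was the 1 gene called higher, at 0.29 ± 0.11 (adjusted p = 0.0359). SRSF6 at -0.12 ± 0.12 (adjusted p = 0.422) and SRSF11 at 0.10 ± 0.12 (adjusted p = 0.556) did not pass the test, with intervals of -0.37 to 0.12 and -0.16 to 0.36.

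**Figure D2:**
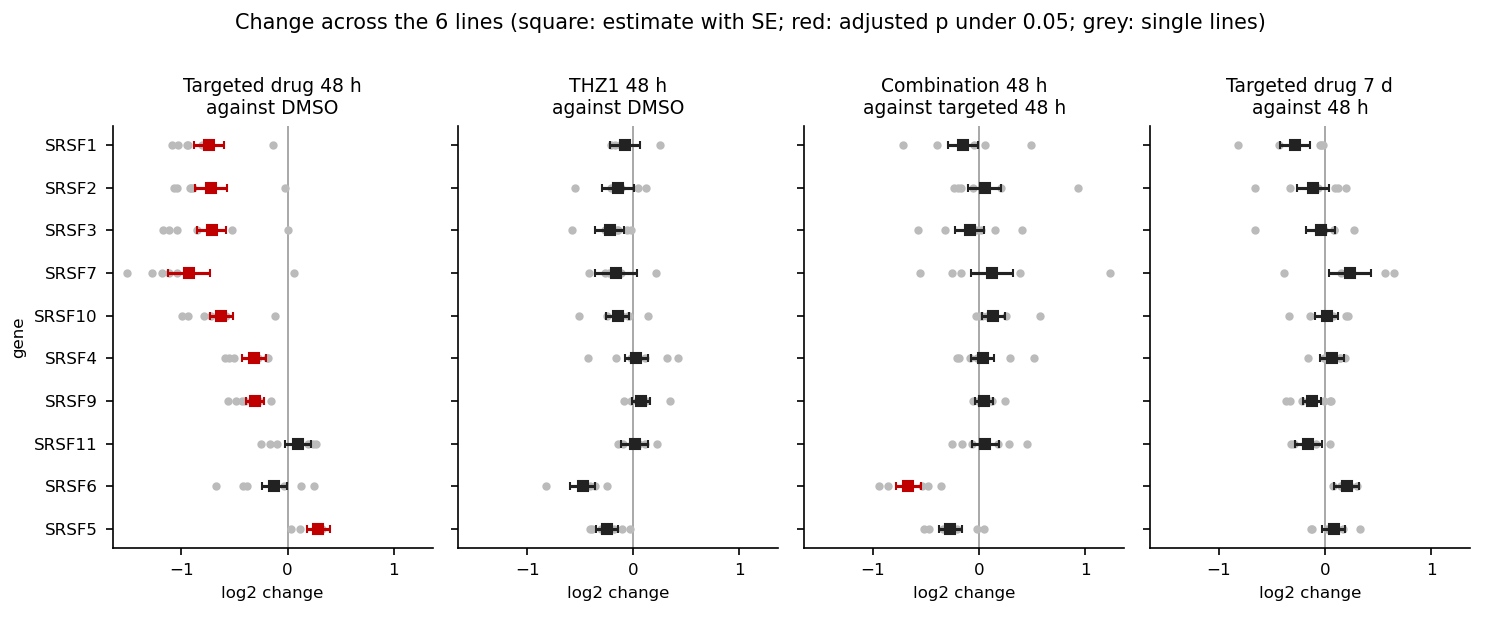
Log2 change of each SR gene across the 6 lines in 4 comparisons; squares are estimates with their SE (red where the adjusted p is under 0.05) and grey points are the single lines. SRSF7, SRSF1, SRSF2, SRSF3 and SRSF10 lie left of 0 in the targeted-drug panel, and SRSF6 is the 1 red gene in the combination panel.

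The 3 weakest of these 8 calls were sensitive to single lines or settings. The SRSF5 call was lost when any one of the lines except A549 was left out, when only the compared arms were fitted, and without a filter on low counts (adjusted p 0.0116 to 0.326 over 13 alternatives). SRSF4 lost its call without A375, N87 or RT112 and with the compared arms only (adjusted p 0.0232 to 0.112), and SRSF9 without RT112 (adjusted p 0.00136 to 0.0511).

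Within single lines, SRSF7 showed how far the levels moved. In A549 its 3 DMSO libraries had 230.3, 224 and 223 CPM and its trametinib libraries 88.4, 86.3 and 86.7 CPM. That was the deepest fall of any SR gene in any line, a log2 change of -1.51 ± 0.06 (adjusted p = 5.60e-15, edgeR within the line). In PC9 the DMSO libraries had 94.5, 91.2 and 87.5 CPM and the erlotinib libraries 38.8, 34.9 and 40.5 CPM. For A375 the values were 191, 192 and 186 CPM in DMSO and 90.6, 102 and 94.2 CPM with vemurafenib. The groups did not overlap in these 3 lines, nor in N87 (-1.18) and RT112 (-1.12), where SRSF7 also fell. The share of all genes whose groups did not overlap is not given here, for this or any other comparison. H3122 stood the other way, also without overlap: 195, 199.9 and 198 CPM in DMSO and 204, 214 and 211 CPM with crizotinib, a log2 change of 0.06 ± 0.06 that did not pass the test (adjusted p = 0.437).

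SRSF1 moved in the same lines. Its DMSO libraries in N87 had 289.6, 298 and 296 CPM and its lapatinib libraries 155, 149 and 157 CPM, groups that lie far apart. RT112 went from 317, 309 and 302 CPM to 171, 172 and 174 CPM with BGJ398. In H3122 the values were 393, 381 and 381 CPM and 346, 362 and 362 CPM, which do not overlap but differ by only -0.14 on the log2 scale (adjusted p = 0.0506). SRSF2 fell by a similar size in A375, A549, N87, PC9 and RT112 (-0.89 to -1.07), and in H3122 its libraries had 517, 514 and 513 CPM in DMSO and 513, 512 and 515 CPM with crizotinib. SRSF3 fell in the same 5 lines (-0.53 in RT112 to -1.17 in A375) and gave 0.00 in H3122 (adjusted p = 0.948). SRSF10 fell in those lines by -0.58 in PC9 to -0.99 in A375, and gave -0.11 in H3122 (adjusted p = 0.117).

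Counting each gene in each line, 41 of 60 gene-by-line values were called lower and 9 higher, where 33.0% of all values tested were called lower and 33.0% higher. H3122 held 2 of the 41 (24.1% of its genes were called lower), SRSF9 at -0.16 and SRSF11 at -0.17. A375, A549, N87 and RT112 each held 8 and PC9 held 7, where 32.9%, 37.4%, 35.4%, 35.1% and 32.8% of the genes of these lines were called lower. The effect of the targeted drug differed between lines for all 10 SR genes by an F test over the 90 libraries, as it did for 93.7% of all genes. Against the mean of the other 5 lines, H3122 lay above for 8 SR genes, by 1.21 ± 0.07 for SRSF7 and 0.75 ± 0.05 for SRSF1, and below for 1, SRSF11, by -0.31 ± 0.08. The share of all genes called when 1 line was set against the other 5 is not given here.

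**Figure D3:**
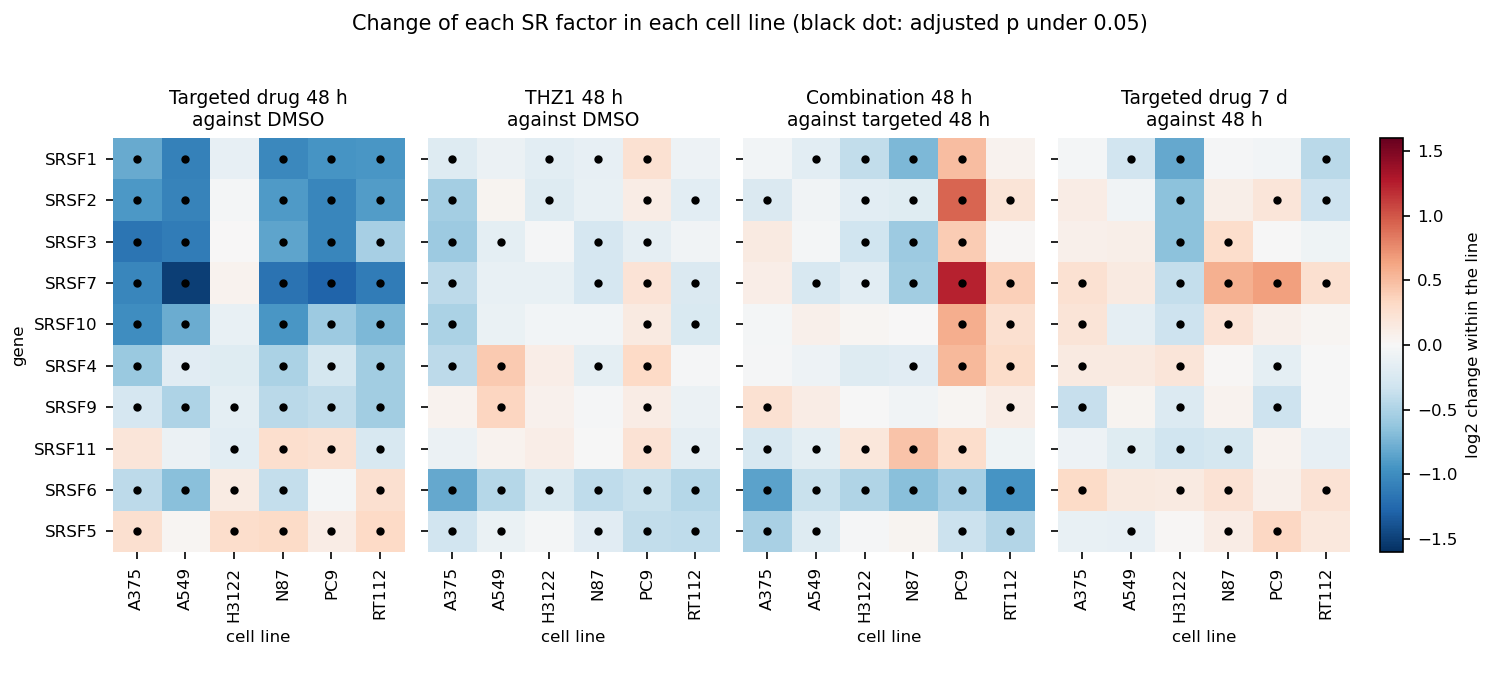
Log2 change of the 10 SR genes (rows) in each of the 6 lines (columns) for 4 comparisons; blue is lower, red is higher, and a black dot marks an adjusted p under 0.05 within the line. The H3122 column is pale for SRSF1, SRSF2, SRSF3, SRSF7 and SRSF10 under the targeted drug at 48 h, and the SRSF6 row is blue with a dot in all 6 lines under THZ1 and under the combination.

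SRSF5, SRSF6 and SRSF11 did not follow the other 7. SRSF5, which binds exonic enhancers, had 279, 295 and 282 CPM in the DMSO libraries of N87 and 383, 364 and 386 CPM with lapatinib, without overlap. In H3122 it had 281, 289.7 and 287 CPM and 354, 358 and 349 CPM with crizotinib, again without overlap, and it was called higher in every line but A549, where the fitted log2 change was 0.03 ± 0.04. As CPM, scaled over all lines, the A549 libraries did not overlap, with 248.1, 248.7 and 244 CPM in DMSO and 288.5, 276 and 268 CPM with trametinib, a ratio of means of 1.12. The A375 call was lost without the first-numbered vemurafenib library (adjusted p = 0.104), and the PC9 call was lost when any one of 8 libraries was left out. SRSF6 fell in A375 (-0.42), A549 (-0.67) and N87 (-0.38), rose in RT112 (0.25) and H3122 (0.13), and gave -0.03 in PC9 (adjusted p = 0.582). Its RT112 libraries had 285, 257 and 250.3 CPM in DMSO and 361, 316 and 329 CPM with BGJ398, while those of A549 went from 358, 344 and 355 CPM to 241, 243 and 245 CPM. The H3122 call was lost when any one of 9 libraries was left out. SRSF11, a less studied member of the family, rose in N87 (0.27) and PC9 (0.24) and fell in RT112 (-0.25) and H3122, where the call was lost without 1 DMSO library (adjusted p = 0.054).

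SRSF4 and SRSF9 fell by less than the 5 genes above. SRSF4 went from 136, 137 and 136 CPM in the DMSO libraries of RT112 to 99.4, 101 and 96.5 CPM with BGJ398, a log2 change of -0.55 ± 0.03. In A549, where SRSF4 was lowest, the libraries overlapped as CPM (66.1, 67.0 and 72.2 against 68.3, 65.4 and 64.7) while the fit within the line called a change of -0.18 (adjusted p = 0.00602). SRSF9 was the 1 SR gene called lower in all 6 lines, from -0.16 in H3122 to -0.56 in RT112, and the share of all genes of which that was so is not given here. The H3122 call was lost when any one of 4 libraries was left out. Its RT112 libraries had 234, 240.3 and 236 CPM in DMSO and 173, 175 and 168 CPM with BGJ398. CPM here are scaled over all 90 libraries and fits within a line over its 15 libraries. For the targeted drug at 48 h, the log2 ratio of CPM lay above the fitted change by 0.02 (median of the 10 genes) in PC9 and by 0.14 in A549, and none of the 159 called values of the 4 comparisons had the other sign as a ratio of CPM.

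THZ1 alone moved the family less. Across lines 0 of 10 SR genes were called by edgeR (2 at an unadjusted p under 0.05), where 0.0842% of all genes were called, and DESeq2 called 1. The largest change was that of SRSF6 at -0.48 ± 0.12 (interval -0.72 to -0.23; adjusted p = 0.0873). It passed with DESeq2 (adjusted p = 0.0119) and when only the compared arms were fitted (0.0151), within a range of 0.0119 to 0.396 over 13 alternatives. Within lines, SRSF6 was called lower in all 6, and no other SR gene was. Its A375 libraries had 284, 285 and 281 CPM in DMSO and 155, 170.1 and 161 CPM with 50 nM THZ1, a log2 change of -0.82 ± 0.08. In H3122, given the same dose, they had 166, 177 and 182 and 144, 152 and 147 CPM, a log2 change of -0.25 ± 0.05. A549, N87, PC9 and RT112 gave -0.46, -0.41, -0.36 and -0.46. The DMSO and THZ1 libraries of SRSF6 did not overlap in any line. Neither the share of all genes of which that was so nor the share called lower in all 6 lines is given here. SRSF5 was below 0 in 6 of 6 lines and called in 5, at -0.25 ± 0.11 across lines (adjusted p = 0.362), and its A549 call was lost when any one of 6 libraries was left out. In RT112 it went from 249, 225 and 225 CPM to 171, 181 and 174 CPM.

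Over the 60 gene-by-line values under THZ1, 29 were called lower and 9 higher, against 21.3% and 20.6% of all values tested. A375 and PC9 differed most from the other lines. In A375, 8 SR genes were called lower (28.9% of its genes were), and 7 lay below the mean of the other lines, for which the share of all genes is not given here. SRSF2 there had 373, 383 and 355 CPM in DMSO and 242, 259 and 266 CPM with THZ1, and SRSF3 had 319, 359.7 and 360.2 and 224, 238 and 241 CPM. In PC9, 7 SR genes were called higher and 3 lower, SRSF3, SRSF5 and SRSF6, against 26.1% and 27.7% of its genes. Of the 7, SRSF2 lost its call without any one of 3 libraries and SRSF9 without either of 2. SRSF1 there went from 230.2, 239 and 224 CPM to 271, 275 and 271 CPM with 100 nM THZ1, without overlap (0.25 ± 0.04). SRSF4 rose in A549 from the DMSO values above to 88.6 ± 1.38 CPM (SD, n = 3), without overlap, and in PC9 by 0.32, and fell in A375 by 0.42 on the log2 scale. The effect of THZ1 differed between lines for all 10 SR genes, and for 83.9% of all genes.

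Adding THZ1 to the targeted drug lowered SRSF6 and called no other SR gene across lines (2 at an unadjusted p under 0.05, SRSF5 and SRSF6). The change of SRSF6 from the targeted drug alone to the combination was -0.67 ± 0.12 (interval -0.91 to -0.42, adjusted p = 0.00209, edgeR), where 4.34% of all genes were called lower and 3.7% higher. SRSF6 was lower in 6 of 6 lines, and its call held without any one line (log2 changes of -0.72 to -0.58 over 13 alternatives). In RT112 its libraries had 361, 316 and 329 CPM with BGJ398 and 169, 164 and 170.1 CPM with the combination. A375 had 258, 191 and 212 CPM with vemurafenib and 117, 125 and 115 CPM with the combination. In N87 the values were 204, 216 and 221 CPM and 134, 134 and 133 CPM. The groups of SRSF6 lie apart in these lines, as do those of A549, H3122 and PC9, and the share of all genes of which that was so is not given here. In DMSO-relative terms, the combination left SRSF6 between 0.42 of its DMSO level in A375 and 0.782 in H3122 (ratios of mean CPM). SRSF5 changed by -0.27 ± 0.11 across lines when THZ1 was added (interval -0.49 to -0.05, adjusted p = 0.117, edgeR). Within lines it was called lower in 4: A375 (-0.52), RT112 (-0.47), PC9 (-0.34) and A549 (-0.21). H3122 and N87 gave -0.02 and 0.05, not called.

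**Figure D4:**
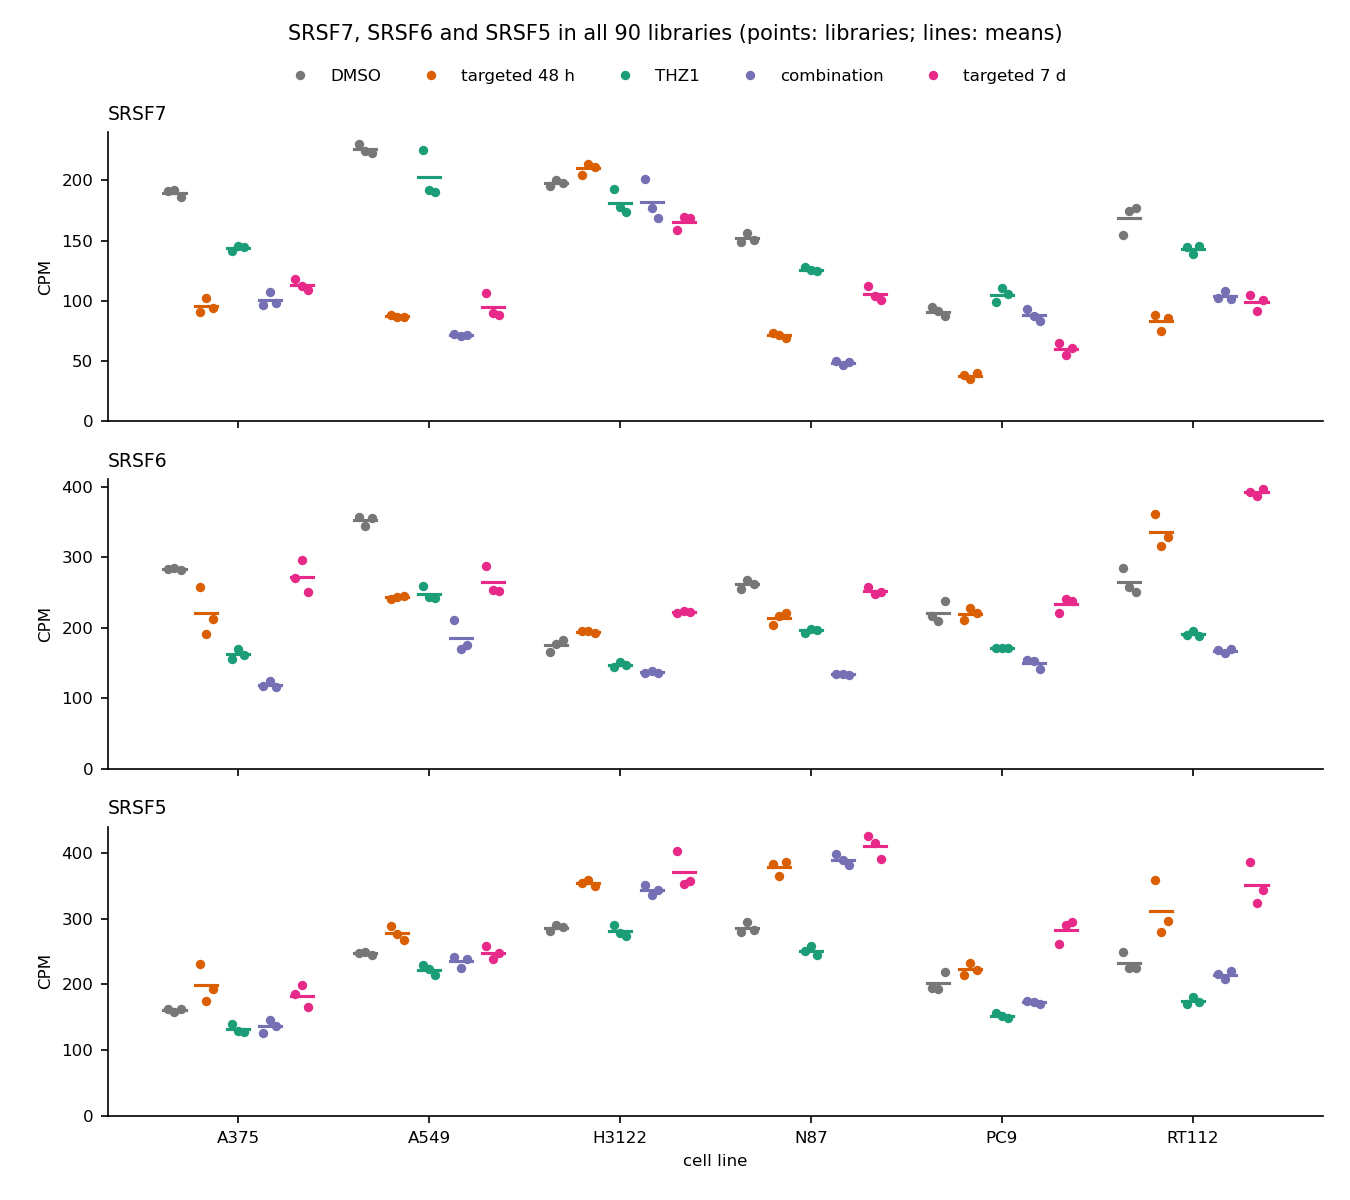
CPM of SRSF7, SRSF6 and SRSF5 in all 90 libraries, by line and arm; points are libraries and short lines the means of 3. SRSF7 drops under the targeted drug in every line but H3122 and rises again in the combination arm of PC9, SRSF6 is lowest in the combination arm of all 6 lines, and the mean of SRSF5 is higher under the targeted drug than in DMSO in all 6 lines, with overlapping libraries in PC9.

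Whether the targeted drug changed what THZ1 did was tested by the interaction of both drugs, and 0 of 10 SR genes were called by edgeR (0 at an unadjusted p under 0.05), as 0.0% of all genes were. DESeq2 also called 0. For SRSF6 the interaction was -0.19 ± 0.17 (interval -0.53 to 0.16), and for SRSF10 it was 0.28 ± 0.16 (interval -0.04 to 0.61, unadjusted p = 0.0815). Values inside these intervals are compatible with the data of the 6 lines, so the lack of a call does not show that there was no interaction.

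Within lines, the combination against the targeted drug gave 24 lower and 15 higher calls of 60, where 27.4% and 27.5% of all values were called. PC9 held 7 of the 15 (33.4% of its genes were called higher), and its 5 genes that had fallen most under erlotinib were all among them. Both comparisons use the same erlotinib libraries, so a chance deviation of those libraries moves the fall and the rise together. The share called higher among all genes that fell under erlotinib is not given here. SRSF7 in PC9 had 38.8, 34.9 and 40.5 CPM with erlotinib and 92.9, 87.6 and 83.6 CPM with erlotinib and THZ1, a log2 change of 1.23 ± 0.07 with 2 of the 3 libraries inside the range of DMSO (94.5, 91.2 and 87.5) and 1 below it. SRSF2 went from 136, 129 and 135 CPM to 246, 253 and 252 CPM, below 2 of its 3 DMSO libraries, and SRSF10 from 62.6, 66.5 and 66.9 CPM to 93.3, 99.2 and 95.7 CPM. SRSF1 and SRSF3 regained less, at 0.49 and 0.40 on the log2 scale, and stayed under all their DMSO libraries. PC9 lay above the mean of the other lines for 7 SR genes, by 1.34 ± 0.08 for SRSF7, and the share of all genes of which that was so is not given here.

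N87 went the other way. SRSF1 there had 155, 149 and 157 CPM with lapatinib and 90.5, 91.4 and 98.2 CPM with the combination, and SRSF7 had 73.3, 71.7 and 69.0 and 50.0, 46.4 and 49.0 CPM. SRSF3 fell further by 0.58 on the log2 scale. SRSF11 rose in N87 from 186, 218 and 225 CPM to 276, 302 and 282 CPM, well above its DMSO libraries at 169.7, 162 and 157 CPM. H3122, which had shown little change with crizotinib alone, had SRSF1 at 346, 362 and 362 CPM with crizotinib and 266, 271 and 260.0 CPM with the combination, and 5 SR genes were called lower in it (14.3% of its genes were), of which SRSF7 lost its call when any one of 10 libraries was left out. RT112 had 5 SR genes called higher and 2 lower, SRSF5 and SRSF6, where 32.8% and 31.4% of its genes were called, and the higher call of SRSF9 was lost without either of 2 libraries. Without PC9 the across-line estimates of SRSF7 and SRSF2 moved from 0.12 and 0.05 to -0.10 and -0.12, none of them called. The effect of the combination differed between lines for all 10 SR genes, as it did for 92.4% of all genes.

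From 48 h to 7 days of the targeted drug, 0 of 10 SR genes changed across lines by edgeR (0 at an unadjusted p under 0.05) or by DESeq2, and 0.0% of all genes were called. This comparison shares its 48 h libraries with the targeted-drug and the combination comparisons above. Within lines, 16 of 60 values were called lower and 16 higher, against 24.0% and 23.8% of all values. H3122 held 7 of the lower calls, where 33.4% of its genes were called lower. SRSF1 in H3122 had 346, 362 and 362 CPM at 48 h of crizotinib and 214, 222 and 190.2 CPM at 7 days, against 393, 381 and 381 CPM in the 48 h DMSO libraries. SRSF2 had 513, 512 and 515 CPM at 48 h and 327, 325 and 354 CPM at 7 days, and SRSF3 had 364, 388 and 361 and 249, 238 and 241 CPM. In these 3 genes the 7-day libraries of H3122 lay below every DMSO and 48 h library of the line. The first-numbered 7-day library of H3122 is one of the 5 that stood apart, and its values lie between those of the other 2 for SRSF1 and SRSF2 and above them for SRSF3.

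SRSF7 partly returned by 7 days in 4 lines. In PC9 it went from 38.8, 34.9 and 40.5 CPM to 65.1, 54.9 and 60.7 CPM, between the 48 h and the DMSO libraries, and in N87 from 73.3, 71.7 and 69.0 CPM to 112, 104 and 100.4 CPM. A375 and RT112 gave 0.24 and 0.26. A549 gave 0.15, not called, and in H3122 SRSF7 was called lower, at -0.39. SRSF6 was above 0 in 6 of 6 lines and called in 4, with 361, 316 and 329 CPM at 48 h and 393, 386 and 397 CPM at 7 days in RT112, and it did not reach a call across lines (0.21 ± 0.12, adjusted p = 0.813). Its change did not differ detectably between lines (adjusted p = 0.198), the 1 SR gene of which that was so, where 90.7% of all genes differed. For neither SRSF7 nor SRSF6 is the share of all genes called higher in 4 lines given here. SRSF9 fell further in A375 (-0.37), PC9 (-0.33) and H3122 (-0.21). SRSF5 rose further in PC9, from 214, 232 and 222 CPM to 262, 289.6 and 295 CPM.

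Summed over the 10 genes, the SR transcripts took between 1828 CPM (PC9) and 2736 CPM (A549) of a DMSO library. At 48 h of the targeted drug the sum was 0.647 of DMSO in A549, 0.692 in A375, 0.723 in PC9, 0.771 in N87 and 0.789 in RT112, and 1.01 in H3122. In H3122 it was 0.809 of DMSO at 7 days. The make-up of the sum shifted as well. SRSF5 made up 12.7% of it in N87 in DMSO and 21.8% with lapatinib, while SRSF7 went from 6.75% to 4.11%. In A549 SRSF5 went from 9.03% to 15.7% and SRSF1 from 15.3% to 12.2%. These sums are relative to all counts of a library, and without a spike-in a change of total RNA per cell cannot be told apart from none.

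Over the 30 groups, with each line centred on its own mean, SRSF1, SRSF2, SRSF3, SRSF7 and SRSF10, grouped after their values were seen, correlated at Pearson's r of 0.89 to 0.95 in all 10 pairs. SRSF4 and SRSF9 correlated with these 5 at 0.70 to 0.83. SRSF5 was negative with the 5 (-0.66 to -0.49) and reached its highest value with SRSF6, 0.55. SRSF6 lay between -0.29 and 0.55 with the other members, and SRSF11 between -0.33 and 0.19. The 30 points share lines, arms and scaling, so these values are descriptions. Of all genes tested, the 3 whose pattern was most like the mean of the 10 SR genes were TRA2B at 0.95, an SR-like splicing activator, C4orf46 at 0.95 and CDCA4 at 0.95. Those most like SRSF7 were C4orf46 at 0.96, MCM3, a subunit of the replicative helicase, at 0.95 and FIGNL1 at 0.95. The part of cell division in the SR changes was not tested.

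**Figure D5:**
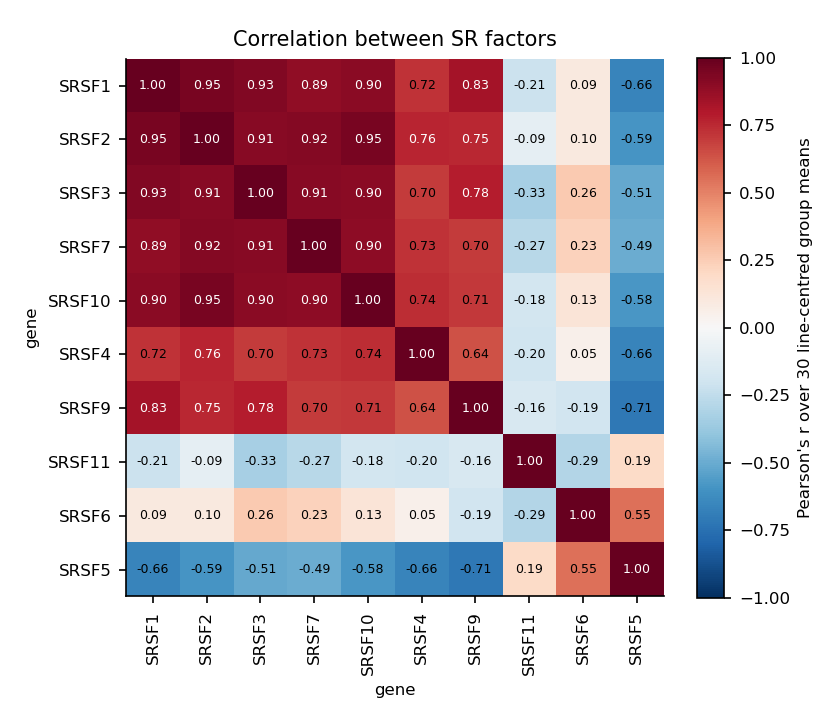
Pearson's r between the 10 SR genes over 30 group means (log2 CPM, each line centred on its own mean); red is positive and blue negative. SRSF1, SRSF2, SRSF3, SRSF7 and SRSF10 form a red block at 0.89 to 0.95, while SRSF5, SRSF6 and SRSF11 stand outside it.

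Other genes of the splicing pathway were counted from lists for the same comparisons. At 48 h of the targeted drugs, where 18.5% of all genes were called lower and 18.6% higher, 2 of the 10 genes in the list of kinases, phosphatases and an importin that act on SR proteins fell and 2 rose, a share near that of all genes. SRPK1, a cytoplasmic SR kinase, changed by -0.87 ± 0.15 (adjusted p = 2.08e-04), and CLK4, a nuclear SR kinase, by 0.52 ± 0.19 (adjusted p = 0.0378). Of the SR-related proteins, 6 of 15 tested fell, with TRA2B at -0.88 ± 0.17 (adjusted p = 5.05e-04), and 0 rose. Of the hnRNP proteins, RNA-binding proteins that often oppose SR proteins, 17 of 22 fell and 1 rose, and HNRNPA2B1 changed by -0.99 ± 0.19 (adjusted p = 6.19e-04). Of the core spliceosome, 28 of 36 fell and 0 rose, led by SNRPF, a ring protein of the small nuclear ribonucleoproteins, at -1.47 ± 0.18 (adjusted p = 4.80e-05). Of the nonsense-mediated decay factors, 1 of 13 fell, below the share of all genes, MAGOH at -0.59 ± 0.12. The medians of the 5 lists were 0.06, -0.08, -0.58, -0.51 and -0.07, against 0.05 over all genes and -0.47 over the 10 SR genes.

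Under THZ1 alone the furthest of these genes from 0, HNRNPA1 and SNRPA1, did not pass the test (adjusted p = 0.0799 and 0.304). When THZ1 was added to the targeted drug, 7 of 36 core spliceosome genes rose and 0 fell, where 3.7% of all genes were called higher and 4.34% lower, with SNRPA1, a U2 particle protein, at 1.27 ± 0.23 (adjusted p = 0.00228). Of the SR-related proteins 2 rose, SCAF4 (0.52 ± 0.14) and RNPS1 (0.42 ± 0.12), as did EIF4A3 (0.51 ± 0.12), a core protein of the exon junction complex. The 1 listed gene besides SRSF6 that fell was HNRNPA1, an hnRNP protein that represses exons, at -0.77 ± 0.17 (adjusted p = 0.0086). With THZ1 alone its value was -0.74 ± 0.17 and the interaction of both drugs was -0.03 ± 0.24.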

How the data were processed

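RNA of 6 cell lines in 5 arms was sequenced, 3 libraries a group. The authors deposited an expected count for each gene and library, from RSEM 1.2.12 and Bowtie2 2.2.1 on hg19, per the submitters' processing notes; their gene annotation was not given in the sources used here. RNeasy micro columns and the NEBNext Ultra RNA kit were used, per the labels' protocols. Of 53893 gene IDs, 47111 were matched to a symbol through GENCODE release 29 (GRCh38), used for names and lengths only.

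Counts were rounded. Across lines, the 3 libraries of a group were summed and the 30 sums fitted in edgeR 4.0.16 (R 4.3.3; quasi-likelihood, TMM, a term for each line) over the 11875 genes that reached 1 CPM in 3 or more libraries of each line. Within a line, its 15 libraries were fitted over 14810 to 16106 genes kept by filterByExpr. An F test over all 90 libraries compared line effects. Calls needed an adjusted p (Benjamini-Hochberg, over all genes tested) under 0.05. Intervals are 95% with 20 residual degrees of freedom. CPM were scaled by TMM over 90 libraries. Library totals of 5641054 to 14361081 expected counts set the precision.

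The fits were tested on simulated data. Across lines 37.0% of genes changed 1.5-fold and 68.0% of those changed 2-fold were recovered for the targeted drug at 48 h, with 5.41% false calls. Alternatives were RLE and upper-quartile scaling, DESeq2 1.42.0, no filter, floored counts, the compared arms only, a 1.5-fold minimum, a replicate block, and leaving out lines, libraries or the 5 libraries that stood apart. All 10 SR genes are named; from each pathway list up to 3 called genes with the largest changes, or the highest and lowest where none was called. The members, lists and tests were chosen with earlier results of these data known.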

Additional observations from a re-analysis of the deposited data

Results flagged for a closer look

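Several line effects lay far from those of the other 5 lines by Dixon's test over the 6 lines, run on 40 sets of line effects, of which chance flags about 1 in 20. In H3122 at 48 h of crizotinib, SRSF1 (-0.1359), SRSF2 (-0.0281) and SRSF7 (0.06189) lay above the other lines on the log2 scale. SRSF3 in H3122 lay below the others from 48 h to 7 days, at -0.6576. Under THZ1 alone, SRSF1 in PC9 lay above the others at 0.2495 and SRSF6 in A375 below them at -0.8212.

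The effect of a treatment differed between lines, by the F test over 90 libraries, for 10 of 10 SR genes under the targeted drug at 48 h, 10 under THZ1, 10 under the combination against the targeted drug, and 9 from 48 h to 7 days. The same test called 93.7%, 83.9%, 92.4% and 90.7% of all genes, so these counts are near the background.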

How the results depend on the processing

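Across lines, the counts of called SR genes were 5 to 8 for the targeted drug at 48 h when each line was left out in turn (5 without RT112), 0 to 0 for THZ1, 1 to 1 for the combination, and 0 for 7 days and for the interaction. THZ1 gave 1 call, SRSF6, with DESeq2 and 1 with the compared arms only. Within lines, a 1.5-fold minimum left 25, 1, 6 and 4 calls for the 4 comparisons. Fewer values can pass it by construction, and the share of all values that pass it is not given here. Leaving out each library gave 47 to 52, 36 to 39, 37 to 40 and 31 to 35, and leaving out each line gave 9 to 10, 8 to 10, 9 to 10 and 8 to 9 SR genes that differed between lines. With a replicate block the counts within lines were 51, 38, 39 and 32 against 50, 38, 39 and 32 without it. The block changed 11 calls: 5 were lost, among them SRSF6 in H3122 at 48 h of crizotinib (adjusted p from 0.0381 to 0.0537), SRSF1 in H3122 and SRSF4 in N87 under THZ1, and SRSF4 and SRSF10 in A375 at 7 days. The 6 gained were SRSF7 and SRSF10 in A549 under THZ1 (0.00317 and 0.00538), SRSF10 in A549 and SRSF5 in RT112 at 7 days, and SRSF11 in A375 and SRSF4 in H3122 at 48 h of the targeted drug. Replicate numbers recur between arms, and 8 of 24 comparisons have 3 shared numbers; in 0 of these was every correlation of same-numbered deviations above 0.1, so the libraries were treated as sharing only a number. None of these 8 was in RT112, where comparisons share 2 numbers, too few for this rule, and 8 same-numbered pairs had r of 0.0035 to 0.37 (median 0.13). Nor does the rule reach the first-numbered A549 libraries, since no compared pair of arms shares that number. In the THZ1, combination and 7-day arms of A549 they were the highest of their group for SRSF5, SRSF6, SRSF7 and SRSF10. They were the lowest for SRSF2, and neither in all of these arms for the other SR genes. A shared effect of that number was not tested by this rule. Of the values of single SR genes under the alternatives, 617 kept direction and call, 12 lost the call, 2 gained it, 9 levels per kb moved by more than the SD over lines with the longest transcript, and 20 uncalled changes crossed 0; 0 called values reversed. Levels are relative to a library's total and summed over the isoforms of a gene, and the libraries of a group may be technical repeats.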

Other observations

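Other SRSF genes were near the limit of detection. SRSF12 had a median of 0.203 CPM and a highest value of 3.489 CPM over the 90 libraries, and 10 SRSF pseudogenes had medians of 0.0 CPM and no value above 0.403 CPM (SRSF3P6). SRSF8 was not analysed here.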
